A study of Mus musculus with 18 samples.

Results

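The genes described here are 10 neighbours of Prdm11 on mouse chromosome 2, taken by name and measured in B cell lymphomas of mice with and without Prdm11. They were Syt13, Chst1, Slc35c1, Cry2, Mapk8ip1, Pex16 and Phf21a on one side of Prdm11 and Trp53i11, Cd82 and Ext2 on the other. All 10 were measured, out of 19938 genes in all, each by 1 probe set with a single gene symbol. The tumours were 9 from Eμ-Myc; Prdm11 knockout (KO) mice and 9 from Eμ-Myc; Prdm11 wild-type (WT) mice, 1 array per tumour and 1 tumour per mouse, so that each tumour was a biological replicate. Eμ-Myc, present in both groups, is a transgene that expresses the oncogene Myc in the B lineage from an antibody gene enhancer, and all mice were labelled as C57BL/6. Spleens with end-stage tumours were frozen and homogenised whole, with no treatment. The age and sex of the mice, the construction of the KO allele and the strain in which it was made were not stated in the labels. Levels are log2 RMA intensities and differences are KO minus WT on that scale.

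Genes that lie close together on a chromosome are usually inherited together. When a gene is targeted in cells of one mouse strain and the allele is then bred into another strain, a stretch of the first strain's chromosome can travel with it, and mice with and without the allele can differ in that stretch as well as in the targeted gene. Comparing the neighbours of a targeted gene asks whether their transcripts differ between the genotypes, as alleles linked to the locus could make them do. An array reads transcript levels and not the sequence of an allele, so a linked allele that leaves the level alone is not seen.

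Of the 10 genes, 0 passed the threshold of limma, a linear model fitted across all genes, at an adjusted p under 0.05, against 0.00502% of all genes. At an unadjusted p under 0.05, 1 of the 10 was called, against 6.70% of all genes. That gene was Trp53i11, higher in KO tumours, against 2.83% of all genes called higher, and 0 of the 10 were called lower, against 3.87%. KO and WT tumours overlapped in all 10 genes, and 0.0100% of all genes had groups that did not overlap. The differences were positive for 5 genes, against 40.8% of all genes, and negative for 5, with a median of 0.0097, beside a median of -0.03 over all genes. Their median size, without sign, was 0.08, beside 0.10 over all genes. The 95% intervals of 9 genes spanned 0, and those of 7, all but Trp53i11, Chst1 and Cd82, lay wholly within a 1.5-fold change in either direction. The interval of Phf21a did so narrowly, with an upper end of 1.496-fold.

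**Figure D1:**
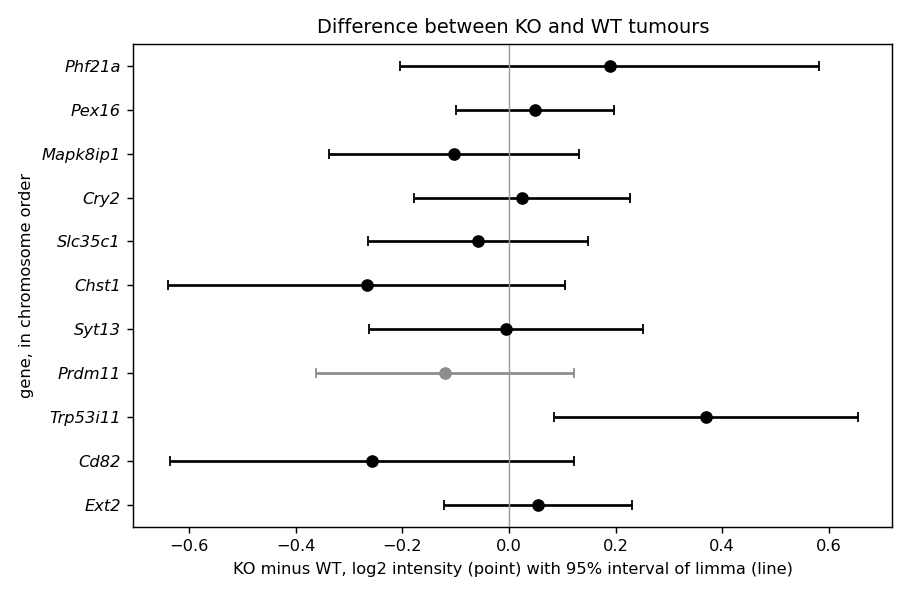
Difference between 9 KO and 9 WT tumours (x axis, KO minus WT in log2 intensity) for each of the 10 genes and, in grey, Prdm11, in chromosome order (y axis); points are limma estimates and lines their 95% intervals. The interval of Trp53i11, from 0.08 to 0.65, is the only 1 of the 11 that leaves out 0.

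The arrays were similar in scale, with median intensities from 35.3 to 41.7. WT tumour 3 stood apart: its correlations with the other arrays had a median of 0.924, where the rest had 0.957 to 0.975. The defining genes of B cells were present: all 9 measured markers had a mean above the median gene. Their mean level was 6.42 to 7.68 in KO tumours and 6.39 to 7.55 in WT tumours, a difference of 0.36. At an unadjusted p under 0.05, 5 of the 9 were higher in KO, against 2.83% of all genes. Erythroid markers averaged 6.26 to 7.74 in KO tumours and 7.19 to 8.98 in WT tumours, a difference of -0.62. At an unadjusted p under 0.05, 6 of 9 were lower, against 3.87% of all genes. The differences were -0.21 for T cell, -0.21 for macrophage, -0.34 for neutrophil and -0.08 for endothelial and stromal markers. At that p, 0 of 10, 2 of 12, 0 of 11 and 1 of 11 of these markers, in that order, were lower, and 0 were higher. Of the T cell markers 7 of 10 exceeded the median gene, of the macrophage markers 12 of 12, of the neutrophil markers 9 of 11 and of the endothelial and stromal markers 6 of 11. In whole tumours, fewer cells of a type and less RNA per cell cannot be told apart.

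Trp53i11, a gene named for its induction by p53, had the largest difference of the 10. Its lowest, median and highest levels were 6.46, 6.81 and 7.11 in KO tumours, against 5.81, 6.39 and 6.87 in WT tumours. All 9 KO tumours lay above the WT median, 3 of them (KO 1, 3 and 7) lay above every WT tumour, and 5 WT tumours lay below every KO tumour. The difference was 0.37 (SE 0.14), a 1.29-fold higher level with a 95% interval of 1.06 to 1.57. The unadjusted limma p was 0.0138, the adjusted p over all genes was 0.699, and the two-sided exact permutation p was 0.0176, where the smallest value the 18 tumours allow is 4.11e-05. By that unadjusted p, 382 genes stood at or ahead of Trp53i11. The difference was 0.43 without WT tumour 3, and 0.40 with the erythroid, T cell and macrophage markers as covariates. It was 0.30 without WT tumour 5, 0.30 without WT tumour 8 and 0.32 with quantile normalization.

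Cd82, on the same side of Prdm11 as Trp53i11, encodes a tetraspanin, a membrane organiser known as a suppressor of metastasis. Its lowest, median and highest levels were 6.16, 6.53 and 7.22 in KO tumours, against 6.28, 6.81 and 7.66 in WT tumours. Of the KO tumours, 7 of 9 lay below the WT median, and the 2 WT tumours of highest level (WT 1 and 3) lay above every KO tumour. The difference of -0.26 (SE 0.18, limma adjusted p = 0.817) had an interval of 0.644-fold to 1.09-fold. It was -0.15 without WT tumour 1, -0.17 without WT tumour 3 and -0.11 with the same marker lists as covariates.

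**Figure D2:**
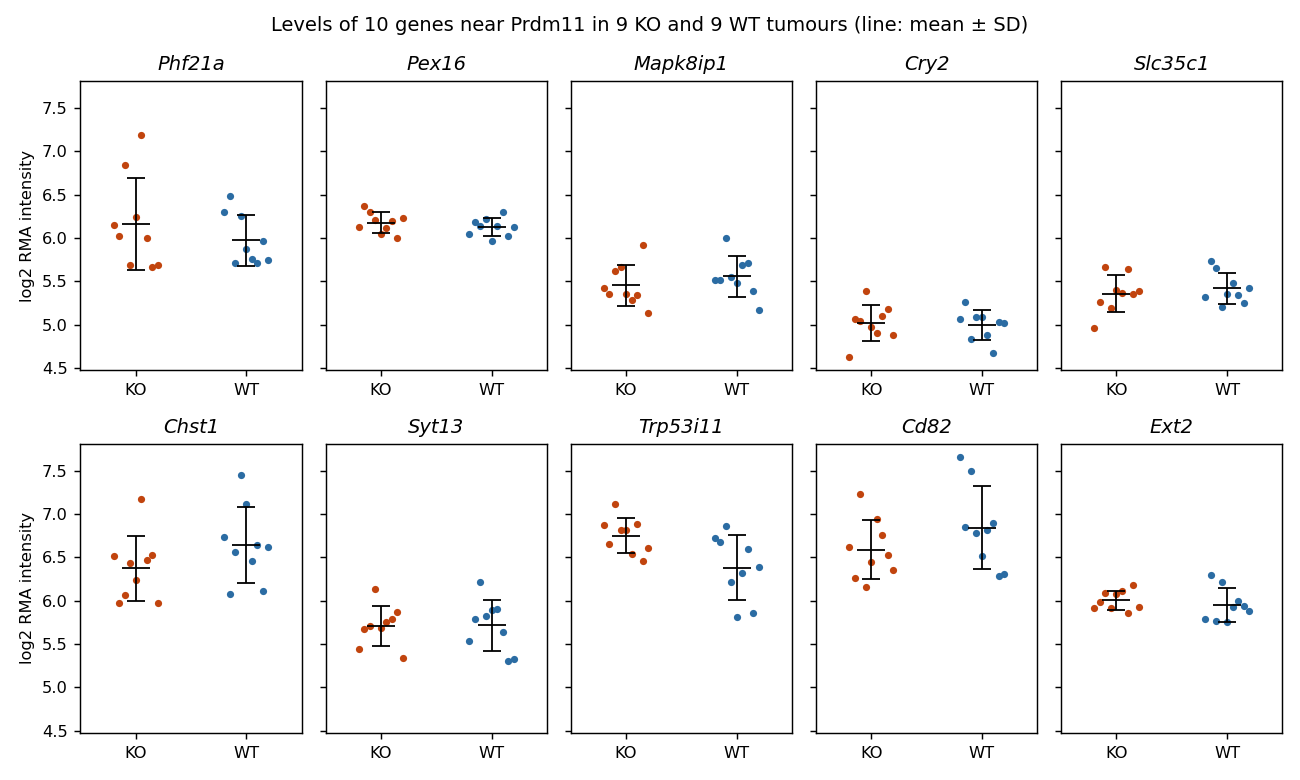
Level of each of the 10 genes (y axis, log2 RMA intensity, shared by all panels) in 9 KO and 9 WT tumours (points), with the mean ± SD of each genotype (black). The groups overlap in every panel; Trp53i11 averaged 6.75 ± 0.20 in KO and 6.38 ± 0.37 in WT tumours.

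Ext2, Chst1 and Slc35c1 act in the making of glycans. Ext2 encodes, with Ext1, the polymerase of heparan sulfate chains, Chst1 a sulfotransferase of keratan sulfate, and Slc35c1 the transporter that brings GDP-fucose into the Golgi. Ext2 had lowest, median and highest levels of 5.86, 5.98 and 6.18 in KO tumours, against 5.75, 5.93 and 6.30 in WT tumours. The KO tumours lay inside the range of the WT tumours, and the difference was 0.05 (SE 0.08, limma adjusted p = 0.919), with an interval of 0.919-fold to 1.17-fold. Slc35c1 had 4.96, 5.37 and 5.67 in KO tumours, against 5.21, 5.35 and 5.73 in WT tumours. The medians of Slc35c1 were close, KO tumours 1 and 4 fell below every WT tumour, and the difference was -0.06 (SE 0.10, limma adjusted p = 0.928), with an interval of 0.832-fold to 1.11-fold. Chst1 had 5.97, 6.43 and 7.17 in KO tumours, against 6.08, 6.62 and 7.44 in WT tumours. For Chst1, 8 of 9 KO tumours lay below the WT median and KO tumour 6 stood well above the other KO tumours. The difference of Chst1 was -0.27 (SE 0.18, limma adjusted p = 0.809), with an interval of 0.642-fold to 1.08-fold, and it was -0.37 without KO tumour 6 (unadjusted p = 0.0367, adjusted p = 0.649) and -0.17 without WT tumour 4.

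The start of Ext2 is shown because it was the 1 gene, of 8 with a promoter window in the RefSeq table, with a canonical E-box, the motif that MYC is known to bind, just upstream of an annotated start, in tumours that all carry a Myc transgene. The window is the 250 bases before the RefSeq start at chr2:93822569-93822818 on the minus strand of GRCm38.p6, outside the gene, with the E-box in capitals:
Ext2: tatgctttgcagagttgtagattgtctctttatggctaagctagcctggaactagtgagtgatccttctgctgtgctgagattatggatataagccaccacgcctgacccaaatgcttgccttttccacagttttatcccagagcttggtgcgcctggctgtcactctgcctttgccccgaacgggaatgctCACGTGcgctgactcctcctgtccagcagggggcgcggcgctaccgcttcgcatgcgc
The motif CACGTG, which reads the same on both strands, lay 58 bases before the start. It was searched in the same 250 bases of every RefSeq promoter window and was found in 6.02% of 32851. The 8 genes had 14 such windows. The match is a description of the reference sequence of C57BL/6J.

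Phf21a, Cry2 and Mapk8ip1 encode a chromatin reader, a clock repressor and a signalling scaffold. Phf21a encodes BHC80, the histone reader of the complex that holds the demethylase LSD1 and the corepressor CoREST. Its lowest, median and highest levels were 5.67, 6.02 and 7.19 in KO tumours, against 5.71, 5.87 and 6.48 in WT tumours. KO tumours spread to both sides of the WT tumours, with 2 (KO 3 and 6) above all of them and 3 below all of them, and the difference was 0.19 (SE 0.19, limma adjusted p = 0.871), with an interval of -0.20 to 0.58 on the log2 scale. It was 0.06 without KO tumour 6, and 0.46 with the erythroid, T cell and macrophage markers as covariates (limma unadjusted p = 0.039, adjusted p = 0.368). The endothelial and stromal markers and the B cell markers, with which Phf21a had its highest r (0.84 and 0.75), were not among these covariates. Cry2, a cryptochrome that represses CLOCK and BMAL1, had 4.63, 5.04 and 5.39 in KO tumours, against 4.67, 5.04 and 5.26 in WT tumours. The medians of Cry2 were equal to 2 decimals, and the difference was 0.02 (SE 0.10, limma adjusted p = 0.979), with an interval of 0.884-fold to 1.17-fold. Mapk8ip1, also called JIP1, assembles kinases of the JNK pathway and had 5.14, 5.36 and 5.92 in KO tumours, against 5.16, 5.52 and 6.00 in WT tumours. Of the KO tumours, 6 lay below the WT median of Mapk8ip1, and the difference was -0.10 (SE 0.11, limma adjusted p = 0.879), with an interval of 0.791-fold to 1.10-fold.

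Pex16 and Syt13 encode membrane proteins of peroxisome assembly and of the synaptotagmin family of vesicle trafficking proteins. Pex16, a membrane protein needed for the assembly of peroxisomes, varied little between tumours, with lowest, median and highest levels of 5.99, 6.19 and 6.37 in KO tumours, against 5.96, 6.13 and 6.30 in WT tumours. The ranges nearly coincided, and the difference was 0.05 (SE 0.07, limma adjusted p = 0.916), with an interval of 0.933-fold to 1.15-fold. Syt13, the nearest measured gene to Prdm11 on its side, had 5.33, 5.71 and 6.14 in KO tumours, against 5.31, 5.79 and 6.21 in WT tumours. Its groups had almost the same mean and differed by -0.0050 (SE 0.12, limma adjusted p = 0.998), with an interval of 0.834-fold to 1.19-fold. Prdm11 itself had 4.87, 5.21 and 5.49 in KO tumours, against 4.84, 5.33 and 5.66 in WT tumours, and its groups differed by -0.12 (SE 0.12, limma adjusted p = 0.868). Whether its probe set falls within a part of the gene altered in the KO allele was not stated, and its level therefore does not check the genotype labels. Of the 10 genes, 8 had a mean above that of the median gene, the exceptions being Slc35c1 and Cry2.

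Widening the view along the chromosome, the nearest 10 measured genes on each side of Prdm11, a window that holds all 10 genes, gave 1 of 20 at an unadjusted p under 0.05. The nearest 25 on each side gave 3 of 50 and the nearest 50 gave 7 of 100. The rest of chromosome 2 gave 117 of 1631, or 7.17%, and the other chromosomes 1207 of 18124, or 6.66%. At a limma adjusted p under 0.05, 1 gene was called among the nearest 50 on each side, and this was Cd59a. The nearest 25 on each side, the rest of chromosome 2 and the other chromosomes had 0. Cd59a was the only gene called of all 19938. The median differences were -0.03 for the nearest 10, 0.01 for the nearest 25 and -0.01 for the nearest 50 on each side. The places were counted in gene order because no genome build was stated for the array values.

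Among the nearest 25 on each side, the genes of smallest p besides Trp53i11 were Traf6 and 2810002D19Rik. Traf6, the ubiquitin ligase of Toll-like and interleukin-1 receptor signalling and 24 places from Prdm11, had lowest, median and highest levels of 5.28, 5.77 and 6.16 in KO tumours, against 5.23, 5.52 and 5.76 in WT tumours. Its difference was 0.31 (SE 0.11, limma adjusted p = 0.699), and 5 KO tumours lay above every WT tumour. 2810002D19Rik, 18 places away, differed by -0.35 (SE 0.14, limma adjusted p = 0.699), and 4 WT tumours lay above every KO tumour. Next came the homeobox gene Alx4 at -0.19 (SE 0.10), Ttc17 at 0.23 (SE 0.13), the heparin-binding growth factor Mdk at -0.14 (SE 0.08) and the autophagy regulator Ambra1 at 0.21 (SE 0.14), with unadjusted p from 0.0637 to 0.152. All 9 KO tumours lay below the WT median of Mdk. Rag1 and Rag2, the recombinase genes of antigen receptor assembly, stand 23 and 22 places from Prdm11 and were picked out after their values were seen. Rag1 ran from 4.25 to 8.90 in KO tumours and from 4.76 to 9.27 in WT tumours, a spread that left its difference of 0.24 with an SE of 0.66.

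**Figure D3:**
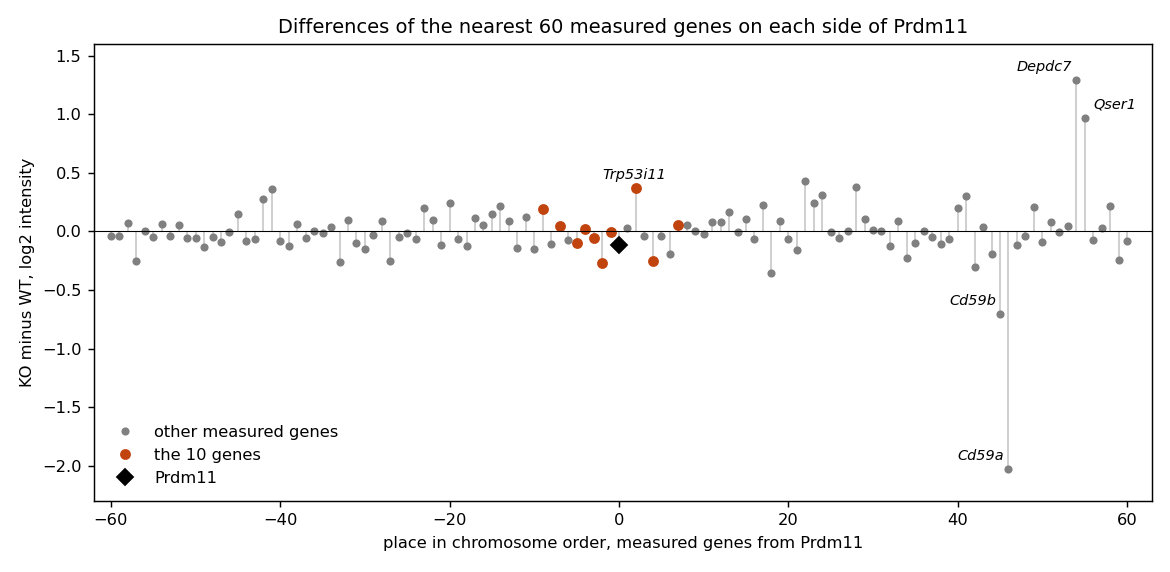
Difference between KO and WT tumours (y axis, KO minus WT in log2 intensity) of the nearest 60 measured genes on each side of Prdm11, by place in chromosome order (x axis, in genes); the 10 genes are red, Prdm11 is black and other genes are grey. The 10 genes lie between -0.27 and 0.37, while Cd59a at place 46 lies at -2.03 and Depdc7 at place 54 at 1.29.

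The large differences of this stretch lay further out, on the side of Trp53i11. Cd59a, an inhibitor of the complement membrane attack complex at place 46, had lowest, median and highest levels of 4.12, 5.08 and 6.39 in KO tumours, against 5.78, 7.47 and 7.81 in WT tumours, and fell by 2.03 (SE 0.29, limma adjusted p = 0.0167). The adjusted p of Cd59a was between 0.0525 and 0.0632 when any of 10 single tumours (KO 3, 5, 7 or 8, WT 3, 4, 5, 6, 7 or 9) was left out. It was 0.0569 with all probe sets tested and 0.0812 with the marker lists as covariates. Cd59b, a close paralog at place 45 whose probes may share targets with those of Cd59a, differed by -0.71 (SE 0.13) at a limma adjusted p of 0.164. Depdc7 and Qser1, at places 54 and 55, were picked out after their values were seen. Depdc7 had 5.72, 6.73 and 9.66 in KO tumours, against 4.50, 5.48 and 6.70 in WT tumours, and all 9 KO tumours lay above the WT median. Its difference was 1.29 (SE 0.41, limma adjusted p = 0.670), and 0.95 without KO tumour 9, the highest. With the marker lists as covariates the difference of Depdc7 was 1.03 (limma unadjusted p = 0.0578). Qser1 had 6.66, 7.18 and 8.12 in KO tumours, against 5.57, 6.03 and 7.95 in WT tumours, and differed by 0.97 (SE 0.30, limma adjusted p = 0.667). Qser1 had 2 probe sets, and by the one of lower mean its difference was 0.73 (limma unadjusted p = 0.0150). WT tumour 1 (7.95) and WT tumour 2 (7.40) were the 2 highest WT tumours for Qser1, and WT tumour 2 was also the lowest WT tumour for Cd59a. For Depdc7, which like Qser1 was higher in KO tumours, WT tumour 1 (4.50) and WT tumour 2 (4.51) were the 2 lowest of all tumours. Fam210b, the gene of chromosome 2 whose groups did not overlap, stands 756 places from Prdm11.

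Across the 18 tumours the 10 genes varied largely apart from one another. With each genotype's mean taken off, 33 of the 45 pairs had a positive Pearson r and the median r was 0.16. The highest was Syt13 with Mapk8ip1, at r = 0.73 (permutation p = 0.00087, adjusted p over 45 pairs = 0.0391) and Spearman rho = 0.64 (permutation p = 0.00486, adjusted p = 0.137). Without WT tumours 3 and 8, the farthest from the median of Syt13, r was 0.64. Next were Trp53i11 with Cd82, at r = 0.67 (permutation p = 0.00661, adjusted p = 0.149; rho = 0.66, permutation p = 0.00608, adjusted p = 0.137; r = 0.59 without WT tumours 5 and 8), and Phf21a with Cd82, at r = 0.49 (permutation p = 0.0271, adjusted p = 0.391; rho = 0.36, permutation p = 0.141, adjusted p = 0.669; r = 0.29 without KO tumours 3 and 6). Trp53i11 and Cd82, which varied in the same direction from tumour to tumour within genotypes, had mean differences of opposite sign between genotypes. The 3 lowest pairs all held Chst1, with r of -0.33 for Slc35c1, -0.26 for Pex16 and -0.25 for Trp53i11. Their rho values were -0.39, -0.34 and -0.25, their permutation p for r 0.184, 0.307 and 0.356, and those for rho 0.124, 0.184 and 0.332. Adjusted, these were all 0.813 for r and 0.669, 0.669 and 0.902 for rho. Without WT tumour 4 and KO tumour 6, r for these pairs was -0.30, -0.46 and -0.12.

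Of 60 relations between the 10 genes and 6 marker lists, 2 passed the adjusted threshold by Pearson's r and 0 by both r and rho. Phf21a had r = 0.84 with the endothelial and stromal markers (permutation p = 0.00016, adjusted p = 0.0096) and rho = 0.69 (permutation p = 0.00293, adjusted p = 0.145). Within genotypes r was 0.90 in KO tumours and 0.64 in WT tumours, and it was 0.71 without KO tumours 6 and 9. With the B cell markers Phf21a had r = 0.75 (permutation p = 0.00047, adjusted p = 0.0141) and rho = 0.67 (permutation p = 0.00483, adjusted p = 0.145), and r was 0.72 without KO tumour 8 and WT tumour 2. KO tumour 6, the highest of the 18 for Phf21a, was also the highest for the endothelial and stromal markers. Trp53i11 had its lowest r, -0.58, with the T cell markers (permutation p = 0.0169, adjusted p = 0.226; rho = -0.45, permutation p = 0.0763, adjusted p = 0.623). Within genotypes this r was -0.11 in KO tumours and -0.84 in WT tumours. Without KO tumour 6 and WT tumour 4, r was -0.61. Chst1 had its highest r, 0.56, with the T cell markers (permutation p = 0.0226, adjusted p = 0.226; rho = 0.30, permutation p = 0.234, adjusted p = 0.623), which was 0.07 without the same 2 tumours and so rests on them.

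**Figure D4:**
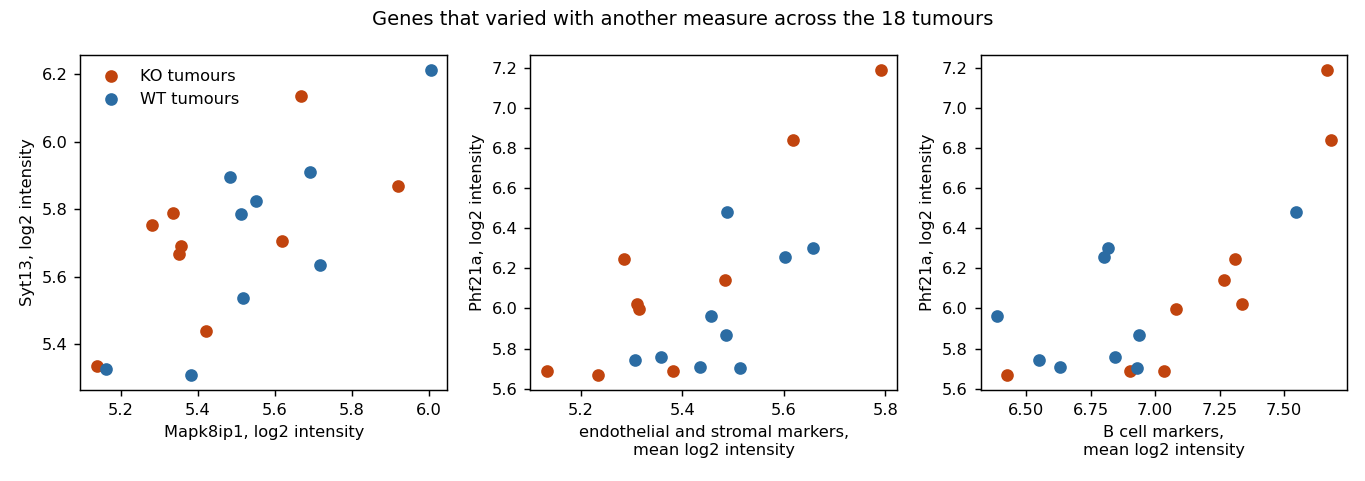
Levels of 9 KO (red) and 9 WT (blue) tumours, in log2 intensity: Syt13 against Mapk8ip1 (left), and Phf21a against the mean level of the endothelial and stromal markers (middle) and of the B cell markers (right). KO tumour 6 is the point at 7.19 for Phf21a; with genotype means taken off, r was 0.73, 0.84 and 0.75 over the 18 tumours.

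In the pathways and families to which the 10 genes belong, 0 genes passed the adjusted threshold of limma. All counts here are at an unadjusted p under 0.05 and leave out the 10 genes themselves. For the LSD1 and CoREST complex of Phf21a, 3 of 13 were higher in KO tumours, against 2.83% of all genes, and 0 lower, against 3.87%, with a median difference of 0.12, beside -0.03 over all genes. These were the scaffold Rcor2 at 0.29 (SE 0.10), the demethylase Kdm1a at 0.34 (SE 0.11) and the deacetylase Hdac2 at 0.47 (SE 0.19), Hdac2 being picked out after the fact. For the circadian clock of Cry2, 3 of 19 were higher, against the same 2.83% of all genes, and 0 lower, against 3.87%, with a median of 0.0098. These were the nuclear receptor gene Nr1d1 at 0.39 (SE 0.13), Clock at 0.37 (SE 0.14) and Arntl, which encodes BMAL1, at 0.29 (SE 0.14), Arntl being picked out in the same way. The B cell markers had a difference of 0.36 in the same tumours, and their part in these counts was not tested. WT tumour 3, the array that stood apart, was the lowest WT tumour for Kdm1a (7.06), Hdac2 (8.93) and Clock (5.82). WT tumour 8 was the lowest WT tumour for Rcor2, Nr1d1 and Arntl. The part of either tumour in these counts was not tested.

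The next 4 lists had 1 or 2 genes lower, where 3.87% of all genes were lower, and 0 higher, where 2.83% were. For heparan sulfate synthesis, the pathway of Ext2, 0 of 25 were higher and 1 lower, the sulfotransferase Hs6st1 at -0.43 (SE 0.16), with a median of -0.09 and with Extl2 at -0.18 (SE 0.10). Among tetraspanins other than Cd82, 0 of 25 were higher and 2 lower, Tspan8 at -0.68 (SE 0.28) and Tspan33, which is known from erythroid development, at -0.46 (SE 0.22), with a median of 0.02. The erythroid markers had a difference of -0.62 in the same tumours, whose part in this was not tested. Among synaptotagmins, 0 of 16 were higher and 1 lower, Syt9 at -0.19 (SE 0.09), with Syt12 at -0.16 (SE 0.08) and a median of -0.09. Only 4 of the 17 measured synaptotagmins had a mean above the median gene. For fucosylation, 0 of 12 were higher and 1 lower, Fut9 at -0.22 (SE 0.10), with Fut11 at -0.20 (SE 0.10) and a median of 0.02. WT tumour 3, which stood apart, was the highest WT tumour for Syt9, Fut9 and Fut11. It was also the highest for the list means of heparan sulfate synthesis and synaptotagmins. Other WT tumours were highest for Hs6st1, Extl2, Tspan8, Tspan33, Syt12 and the list means of tetraspanins and fucosylation. The part of WT tumour 3 in these differences was not tested.

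Peroxisome assembly (13 genes), the JNK pathway (13) and the carbohydrate sulfotransferases (13) each had 0 calls in either direction, a number near the 6.70% of all genes called for lists of this size. Their median differences were -0.01, 0.0025 and 0.0058. Their genes of smallest p were Pex5l at -0.17 (SE 0.08) and Pex6 at 0.14 (SE 0.09), Mapk8 at 0.28 (SE 0.16) and Map3k12 at 0.13 (SE 0.07), and Chst8 at -0.10 (SE 0.08) and Chst10 at -0.10 (SE 0.08).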

How the data were processed

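Total RNA of 18 tumours was hybridised to Affymetrix arrays, per the labels' protocols. Per the submitters' processing notes the authors used RMA. Their deposited table gave an intensity per probe set, not logged, of which log2 was taken with no pseudocount. Of 35556 probe sets, 21789 had 1 gene symbol, 1621 several and 12146 none in the platform table. Each gene was represented by its probe set of highest mean, which gave 19938 genes with no filter on dim ones, and of these 1732 were placed on chromosome 2 by the RefSeq gene table (GRCm38.p6).

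KO and WT tumours were compared with limma 3.58.1 in R 4.3.3 (lmFit and eBayes, no covariate), with Benjamini-Hochberg adjustment over all genes. Single genes had a two-sided exact permutation test over 48620 splits of the tumours, and correlations had 100000 permutations within genotype. Python 3.11.15 with scipy 1.17.1 did these steps. Tested on simulated data for this comparison with 19938 genes, the limma step recovered 61.2% of the genes at 1.5-fold, 95.0% at 2-fold and 99.6% at 3-fold. Recovery meant an adjusted p under 0.05. The simulation held many changed genes (250 at 1.5-fold, 500 at 2-fold and 250 at 3-fold over 5 runs), which eases that threshold. In the tumours 1 gene passed it, so these shares do not carry over to them. Fam210b, 2.00-fold lower in KO tumours, had a limma adjusted p of 0.164. No detection calls or scan dates were used here, and the number of arrays limits the precision. The 10 genes and all gene lists were chosen with earlier results of these data known. Outside the 10 genes, Prdm11, Cd59a and Cd59b, the genes named were the 6 of smallest p among the nearest 25 on each side, 2 of smallest p per list and the 3 highest and lowest pair correlations, and others are marked. Alternatives covered scaling, dim genes, probe sets, variance models, covariates, the replicate block and left-out tumours.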

Additional observations from a re-analysis of the deposited data

Results flagged for a closer look

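Chst1 in KO tumours was the 1 of 20 groups of tumours (10 genes in 2 genotypes) with a tumour far from the others. KO tumour 6 had a level of 7.17, the next highest KO tumour 6.53 and the lowest 5.97, so that the gap took 0.535 of the range of the group, above Dixon's critical value of 0.493 for 9 tumours. Chance flags about 1 in 20 such groups. KO tumour 6 also had the highest T cell marker mean of the 18 tumours, at 7.46, and the part of these markers in its Chst1 level was not tested.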

How the results depend on the processing

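Under each of 27 other settings, 0 of the 10 genes passed the adjusted threshold (of 8 with dim genes removed, where Slc35c1 and Cry2 were not tested), and the unadjusted p of Trp53i11 lay between 0.000974 and 0.0431, with an adjusted p of 0.242 to 0.961 and a difference of 0.30 to 0.47. With composition covariates the counts at an unadjusted p under 0.05 were 2 of the 10 genes (Trp53i11 and Phf21a), 3 of the nearest 10 genes on each side, 8 of the nearest 25, 16 of the nearest 50 and 258 on chromosome 2, against 12.9% of all genes, and the cause was not tested. The count on chromosome 2 was 218 with array weights, when 12.6% of all genes were called, and 73 of 784 with dim genes removed, where fewer genes were tested and 8.065% of all were called. With 1 tumour left out, these counts were 1 to 2 of the 10 genes (2 without KO tumour 6), 1 to 2 of the nearest 10 on each side (2 without KO tumour 6, 7 or 9 or WT tumour 6), 3 to 4 of the nearest 25, 6 to 11 of the nearest 50 (11 without WT tumour 2) and 100 to 159 on chromosome 2 (159 without WT tumour 2). The share of all genes called then ran from 5.10% to 9.14%, the highest being without WT tumour 2. The median difference of the 10 genes ran from -0.03 to 0.04. A sign changed only for the 2 smallest differences. Syt13 was at 0.014 with median centring, 0.0098 with composition covariates and -0.058 to 0.057 with 1 tumour left out. Cry2 was at -0.0079 with array weights and -0.022 to 0.073 with 1 tumour left out. A window of 60 genes on each side, chosen after seeing the data, gave 9 of 120, or 7.5%, against 6.70% of all genes.

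What same-numbered KO and WT tumours shared besides a number was not stated. The correlation of their deviations ran from -0.234 to 0.485 and was above 0.1 for 4 of 9 pairs. Of the 9 KO tumours, 1 was best matched by the WT tumour of its own number. With the replicate block, the counts were 1 of the 10 genes, 3 of the nearest 25 on each side, 7 of the nearest 50 and 115 of 1732 on chromosome 2, against 7.26% of all genes, and Cd59a had an adjusted p of 0.322.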
